A study of Mus musculus with 2 samples.

Results

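Cells caught with Neurog3 transcript were selected from 2 libraries of sorted mouse intestinal cells. A cell counted as a Neurog3 cell when it held at least 3 UMIs of Neurog3, a UMI (unique molecular identifier) being the tag that marks 1 captured transcript molecule. It also had to hold at least 500 genes and 1000 UMIs, with at most 25% of its UMIs from mitochondrial genes. The rule found 613 of 8761 cells, or 6.997% (6.47 to 7.55). Of these, 177 came from the WT library and 436 from the library labelled NFKO. Bounds in parentheses are 95% intervals throughout, exact binomial for shares, conditional binomial for ratios and exact Poisson for levels. They cover counting error only.

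The study asked what becomes of intestinal cells of the Neurog3 lineage when FoxO1 is deleted in them. WT mice were Neurog3Cre; Rosa26tdtomato, and NFKO mice were Neurog3Cre-FoxO1 f/f; Rosa26tdtomato, so both carried the Cre and the reporter, and the floxed FoxO1 alleles were the labelled difference. Cre under the control of Neurog3 switches on the red protein Tomato for good, and live Tomato-positive epithelial cells were sorted and profiled with the 10x Genomics 3′ kit. Each library pooled the whole small intestines of 4 to 5 mice aged 4 to 6 weeks, with the attached pancreas removed, and each group had 1 library, so no difference between the groups could be tested. A Neurog3 cell could enter the sort only once enough Tomato protein had been made, which limits how early such a cell could be seen.

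Neurog3 is a basic helix-loop-helix transcription factor that is switched on briefly in crypt progenitors and is needed for all enteroendocrine cells, the hormone cells of the gut epithelium. It turns on further factors, among them Neurod1, Insm1, Pax4 and Nkx2-2, and is lost again as the cell takes on a hormone identity. Ghrelin cells (Ghrl) and enterochromaffin cells, which make serotonin through the enzyme Tph1 and often the peptide substance P from Tac1, are among the identities that such a cell can take.

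Basic helix-loop-helix factors bind E-boxes, sites of the form CANNTG. The 250 bases before the annotated start are therefore shown for the 4 genes that mark the Neurog3 cells and for Ghrl and Tac1, which separated them below. The sequences are RefSeq's on GRCm38.p6, written 5′ to 3′ in the direction of transcription, with every CANNTG in capitals. The windows are Neurog3 at chr10:62132840-62133089 on the plus strand, Neurod1 at chr2:79456637-79456886, Neurod2 at chr11:98329646-98329895 and Ooep at chr9:78378589-78378838 on the minus strand. The Ghrl window is at chr6:113717693-113717942 on the minus strand, before the first of its 4 listed starts, and the Tac1 window at chr6:7554811-7555060 on the plus strand.
Neurog3: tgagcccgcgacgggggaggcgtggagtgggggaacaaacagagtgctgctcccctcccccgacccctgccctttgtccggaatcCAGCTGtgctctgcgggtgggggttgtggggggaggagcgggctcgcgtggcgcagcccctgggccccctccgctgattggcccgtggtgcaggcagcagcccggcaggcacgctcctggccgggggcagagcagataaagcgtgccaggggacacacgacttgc
Neurod1: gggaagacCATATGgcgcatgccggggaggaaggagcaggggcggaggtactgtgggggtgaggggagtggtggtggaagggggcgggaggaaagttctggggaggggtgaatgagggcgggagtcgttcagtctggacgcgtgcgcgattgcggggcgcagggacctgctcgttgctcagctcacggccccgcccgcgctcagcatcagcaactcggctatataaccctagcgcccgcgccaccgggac
Neurod2: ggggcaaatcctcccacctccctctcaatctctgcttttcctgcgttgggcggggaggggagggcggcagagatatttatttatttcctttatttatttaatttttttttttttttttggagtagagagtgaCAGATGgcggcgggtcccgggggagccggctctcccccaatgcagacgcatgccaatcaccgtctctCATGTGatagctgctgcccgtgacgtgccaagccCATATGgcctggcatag
Ooep: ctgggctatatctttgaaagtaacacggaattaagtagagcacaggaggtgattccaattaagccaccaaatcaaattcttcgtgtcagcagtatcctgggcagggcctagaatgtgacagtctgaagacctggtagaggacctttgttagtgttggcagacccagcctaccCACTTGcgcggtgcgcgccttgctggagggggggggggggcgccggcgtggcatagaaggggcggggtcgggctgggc
Ghrl: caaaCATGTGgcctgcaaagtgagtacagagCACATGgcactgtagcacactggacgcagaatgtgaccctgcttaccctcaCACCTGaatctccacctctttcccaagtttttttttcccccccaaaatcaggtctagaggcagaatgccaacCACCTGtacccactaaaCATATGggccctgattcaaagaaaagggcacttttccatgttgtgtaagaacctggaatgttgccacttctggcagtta
Tac1: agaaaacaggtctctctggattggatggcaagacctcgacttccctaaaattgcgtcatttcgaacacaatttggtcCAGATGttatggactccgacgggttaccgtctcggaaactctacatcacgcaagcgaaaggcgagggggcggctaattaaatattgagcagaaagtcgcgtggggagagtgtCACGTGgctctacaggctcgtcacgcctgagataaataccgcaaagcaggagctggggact

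The Neurog3 window held CAGCTG 165 bases before the start, the Neurod2 window CAGATG at 118, CATGTG at 51 and CATATG at 17, and the Ooep window only CACTTG at 78. The Ghrl window held 5 matches and the Tac1 window 2, CAGATG at 173 and CACGTG at 61. CANNTG reads as CANNTG on both strands, and 66.2% of all 32851 promoter windows of this length hold it. The form CAGATG, read on either strand, or CAGCTG was in 25.5% of all windows. Of 12 early endocrine factors 8 had an entry, and 4 of their 10 windows (40%) held one of those forms. These are counts of letters and do not show binding.

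Foxo1, the targeted gene (ENSMUSG00000044167, chromosome 3, 52268336 to 52353221, plus strand, mm10), was examined first. Neurog3 cells held 54 UMIs of Foxo1 in the WT library, or 15.5 CPM (UMIs of a gene scaled to 1000000 UMIs of the summed cells), and 130 UMIs or 15.4 CPM in the library labelled NFKO. The ratio was 0.995 (0.719 to 1.39), so no loss of Foxo1 transcript was detectable in these cells. The kit reads the 3′ end of transcripts, and the deleted part of the gene is not given in the sources used here, so reads from a shortened transcript may be counted. Foxo3, Foxo4 and Foxo6, the other members of the family, had ratios of 0.741 (0.551 to 1.00), 1.04 (0.723 to 1.53) and 0.806 (0.541 to 1.22). The paper reports significantly lower FoxO1 expression in Tomato-positive cells sorted from NFKO mice, and no change of FoxO3 and FoxO4. That concerns sorted Tomato-positive cells and not the Neurog3 cells taken here. The library is called the library labelled NFKO throughout.

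The Neurog3 cells held 3482744 UMIs in the WT library and 8424266 in the library labelled NFKO. The median Neurog3 cell held 13196 UMIs (4330 to 207489) and 3780 genes in the WT library, and 15712 UMIs (1328 to 206643) and 4302 genes in the other. Cells with no Neurog3 UMI were deeper, at 18815 and 17726 UMIs. Cells over 50000 UMIs, 14 and 15 in number, held 34.0% and 14.9% of the UMIs of all Neurog3 cells, so values summed over cells lean on them. The libraries also differed in sex: 158 of 177 Neurog3 cells of the WT library but only 25 of 436 of the other held Y-linked transcript and no Xist, and sex cannot be told apart from the labelled genotype. Both libraries shared 6 barcodes, 0 of them of Neurog3 cells.

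Neurog3 (ENSMUSG00000044312, chromosome 10, 62133090 to 62134763, plus strand) chose these cells, so its level is a description. It was at 3 to 44 UMIs with a median of 9 in the WT library, and at 3 to 97 with a median of 12 in the library labelled NFKO. Per cell, this was a median of 673 CPM (53.8 to 3596) and 802 CPM (24.5 to 5162). At the edge of the rule, 50 cells held exactly 3 UMIs and 69 cells exactly 2. Neurod1 was at 859 CPM in the cells with 3 UMIs and 666 in those with 2, Neurod2 at 54.4 and 53.3, and Ooep at 148 and 42.3. A hormone, as defined below, was carried by 15 of the 50 cells with 3 UMIs and by 21 of the 69 with 2, with the libraries on either side: the shares were 38.5% and 22.2% in the WT library and 27.0% and 35.7% in the other. Neurod2 was likewise at 115 and 62.5 CPM in the WT library and at 41.7 and 49.0 CPM in the other.

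Neurod1, Neurod2 and Ooep were the markers given for these cells as endocrine progenitors. They were chosen with earlier results of these data known, so their presence describes the cells and does not check the name. Neurod1, a helix-loop-helix factor downstream of Neurog3, had a UMI in 169 of 177 Neurog3 cells of the WT library (95.5%) and 427 of 436 of the other (97.9%). In tuft-marker cells, a chemosensory type in which these genes should be absent, it had a UMI in 11.6% and 12.0%, at median depths of 7753 and 17620 UMIs. Neurod2, a close relative of Neurod1, was seen in 75.7% and 78.0% of Neurog3 cells and in 1.05% and 1.71% of tuft-marker cells. Ooep, known as a gene of the oocyte, was seen in 42.9% and 39.0% of Neurog3 cells, in 0 of 95 tuft-marker cells of the WT library, which allows a share of up to 3.16%, and in 2.86% of those of the other. With each cell thinned to 2000 UMIs, Neurod1 was still in 76.8% and 79.8% of Neurog3 cells, Neurod2 in 26.0% and 24.4%, and Ooep in 23.7% and 24.1%. Ooep was thus seen in fewer of these cells than Neurod1, with or without thinning.

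Genes that went with Neurog3 were sought by comparing Neurog3 cells with cells of the same library that had no Neurog3 UMI, 2881 and 5036 in number. A total of 3631 genes had at least 50 CPM in 1 of the groups and at least 60 UMIs. In both libraries 471 of these (13.0%) reached 2-fold or more on the side of Neurog3 cells, and 212 (5.84%) on the side of the other cells. Over all genes compared, levels in Neurog3 cells were higher by a median of 0.37 (log2, taking for each gene the library with the fold nearer to 1). Relative to that shift, with median-of-ratios size factors, the split was 190 higher against 391 lower, and with each cell given the same weight 419 against 345. The same cells were chosen by Neurog3, so these folds describe the cells and were not tested.

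Ooep (ENSMUSG00000032346, chromosome 9, 78376109 to 78378725, minus strand) had the highest fold of all. It was at 272 CPM in Neurog3 cells of the WT library and at 3.28 CPM in cells with no Neurog3 UMI, 83.0-fold (72.2 to 95.5). In the other library the levels were 315 and 3.90 CPM, 80.8-fold (72.9 to 89.8). The lower fold of the pair was 54.5 with each cell weighted alike and 33.2 in male-typed cells, those with Y-linked transcript and no Xist. The predicted gene Gm38655 was 60.9-fold and 47.0-fold higher, and Tubb3, a tubulin best known from neurons, 47.9-fold and 38.0-fold. Neurod2 was 37.6-fold and 32.4-fold higher, at 111 against 2.95 CPM and at 117 against 3.61 CPM. The leading genes thus had high folds in each library.

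Slc39a2, a zinc transporter, was 52.7-fold and 23.0-fold higher, and Epb42, a protein of the red cell membrane skeleton, 21.7-fold and 22.2-fold. The actin-binding drebrin gene Dbn1 was 21.4-fold and 16.5-fold higher and the corepressor Rcor2 19.2-fold and 13.1-fold. The exchange factor Fgd2, Amotl2, Btbd17 and the cyclic nucleotide phosphodiesterase Pde1c followed, between 8.87-fold and 17.0-fold in either library. All 15 leading genes stayed past 2-fold in both libraries under the 7 alternatives computed for single genes, which changed the Neurog3 minimum, the scaling, the cell weights, the depth limit, the doublets or the sex of the cells or left hormone UMIs out of the totals.

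Each of 12 early endocrine factors was at least 2-fold higher in Neurog3 cells, with a median of 2.72 on the log2 scale against 0.37 over all genes compared, and all 12 remained so with size factors. Pax4, a paired-box factor of endocrine fate, was 26.6-fold and 20.5-fold higher. Sox4 was 9.37-fold and 8.58-fold higher, the homeobox factor Nkx2-2 9.40-fold and 7.31-fold, and Insm1, a zinc finger repressor, 8.07-fold and 5.63-fold. Myt1, Tox3, Rfx3, Runx1t1 and St18 lay between 4.66-fold and 9.09-fold. Neurod1 and Rfx6, which are also used by mature hormone cells, showed the smallest folds of the list: Neurod1 was 4.64-fold and 3.51-fold higher and Rfx6 4.81-fold and 3.77-fold.

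**Figure D1:**
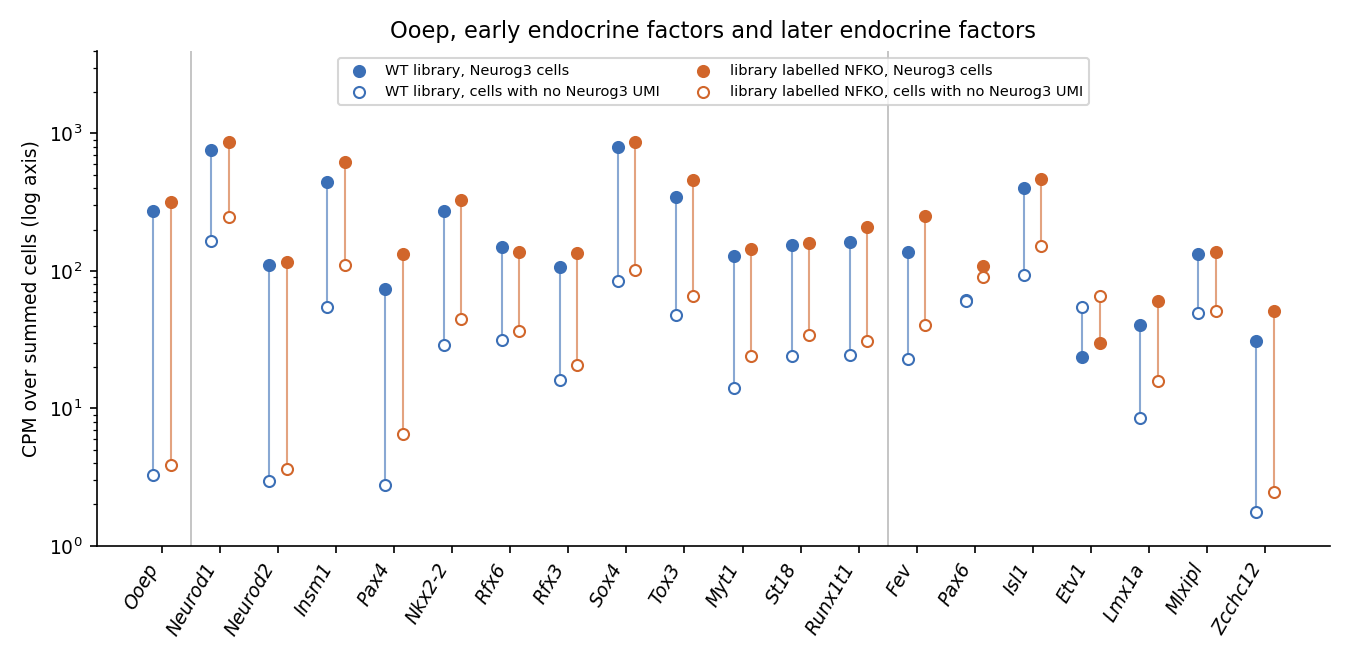
Levels (CPM over summed cells, log axis) of Ooep, 12 early and 7 later endocrine factors in Neurog3 cells (filled) and in cells with no Neurog3 UMI (open) of the WT library (blue) and the library labelled NFKO (orange), with a line joining the groups of a library. Every early factor sits higher in Neurog3 cells in both libraries, while Pax6 lies close to level and Etv1 lies lower.

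Of the 7 later endocrine factors that could be compared, 5 were at least 2-fold higher and 1 lower, with a median of 1.63 (log2). Zcchc12 was 17.4-fold and 20.6-fold higher and Fev, a factor of serotonin cells, 5.97-fold and 6.15-fold. Lmx1a, a LIM homeobox factor of enterochromaffin cells, was 4.74-fold and 3.86-fold higher and the LIM homeobox factor Isl1 4.28-fold and 3.09-fold. Pax6 was close to level, at 1.01-fold and 1.22-fold. Etv1, an ETS factor, was lower, at 0.436-fold and 0.455-fold. Factors reported for mature hormone cells were therefore not all high in Neurog3 cells.

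Upstream factors of the secretory lineage lay on both sides, with a median of -0.25 (log2). Atoh1, the factor that commits crypt cells to secretory fates, was at 8.61 CPM in Neurog3 cells of the WT library against 70.9 in cells with no Neurog3 UMI, and at 26.7 against 126 in the other. Spdef, a factor of goblet and Paneth cells, was 0.138-fold and 0.263-fold, and Creb3l1 0.420-fold and 0.463-fold. Hes6, at 2.85-fold and 2.53-fold, and the forkhead factor Foxa2, at 3.46-fold and 3.14-fold, were the 2 of 10 genes of this list that were higher, against 3 that were lower. With size factors 1 gene of this list was higher and 4 were lower. Of 18 Notch pathway genes only 3 had enough UMIs for comparison, and Hes6 alone passed 2-fold. With size factors 0 Notch pathway genes passed, and with each cell weighted alike 2 were higher. Mfng, a Fringe enzyme that modifies Notch, had too few UMIs for comparison. It was at 22.7 CPM against 0.971 in the WT library and at 44.4 against 1.76 in the other.

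Genes of leaving the cell cycle were high in the same cells, 4 of 7 passing 2-fold and 0 lying below, with a median of 1.25 (log2). Gadd45a, a stress-induced growth arrest gene, was 9.33-fold and 7.30-fold higher. The cyclin-dependent kinase inhibitors Cdkn1c and Cdkn1a were 6.17-fold and 5.79-fold and 4.60-fold and 4.38-fold higher, and the antiproliferative gene Btg2 2.57-fold and 2.38-fold. Of 6 cycling genes compared, 0 passed 2-fold either way in both libraries. At 2000 UMIs per cell, 3 or more of 20 cycling genes were seen in 15 of 177 Neurog3 cells of the WT library (8.47%) and 27 of 435 of the other (6.21%), against 13.1% and 12.0% of cells with no Neurog3 UMI. Genes of the stress list, which held Fos, Jun and heat shock genes, took a median of 1.06% of UMIs in Neurog3 cells of the WT library against 0.530% in cells with no Neurog3 UMI, and 0.608% against 0.324% in the other. Of these 10 genes 0 passed 2-fold in both libraries, and their part in the levels of Gadd45a, Cdkn1a and Btg2 was not tested.

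Granule genes were mixed. Of 15 genes of granules and exocytosis, 7 were at least 2-fold higher and 1 lower, and with size factors or with each cell weighted alike only 2 were higher. Chgb, a granin of secretory granules, was at 6596 CPM in Neurog3 cells of the WT library against 2407, and at 9511 against 2986 in the other. Rab3c, a GTPase of exocytosis, was 4.16-fold and 5.39-fold higher and Syt13 3.74-fold and 3.28-fold. Scg2, another granin, was at 16.1 against 125 CPM and at 27.1 against 214 CPM, the lower gene of the list.

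Markers of other epithelial cells were low in Neurog3 cells. All 8 goblet genes and all 8 Paneth genes were at least 2-fold lower in both libraries, as were 5 of 7 enterocyte genes. Muc2, the goblet mucin, was at 297 CPM against 2654 in the WT library and at 984 against 4723 in the other. Of the 5 stem cell genes compared only Axin2, a target of Wnt signalling, passed 2-fold, at 2.07-fold and 2.14-fold. With size factors 0 stem cell genes passed either way, and with each cell weighted alike 0 were higher and 2 lower. Tuft and immune genes were too rare for comparison, with 4 and 2 of 10 tuft genes at 0 UMIs in the Neurog3 cells of the WT library and of the other, and 7 and 4 of 8 immune genes.

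A hormone was already abundant in part of the Neurog3 cells. A cell carried a hormone when Gip, Gcg, Pyy, Cck, Sst, Ghrl or Nts made up at least 1% of its UMIs. This held for 27 of 177 Neurog3 cells of the WT library (15.25%; 10.3 to 21.4), for 108 of 436 of the library labelled NFKO (24.8%; 20.8 to 29.1) and for 135 of all 613 (22.0%; 18.8 to 25.5). In cells with no Neurog3 UMI the shares were 21.6% and 25.2%. In tuft-marker cells, taken as a type without these hormones, they were 4.21% (4 of 95) and 1.71% (3 of 175). The share in Neurog3 cells was thus under that of the other cells in the WT library and close to it in the library labelled NFKO, and in both it lay over the share in tuft-marker cells.

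Ghrl was nearly the whole of it. Ghrl (ENSMUSG00000064177, chromosome 6, 113716119 to 113719880, minus strand), which encodes the hunger hormone ghrelin, reached 1% in 24 of the 27 hormone-carrying Neurog3 cells of the WT library and in 97 of the 108 of the other, 89.6% (83.2 to 94.2) of both together. Among hormone-carrying cells with no Neurog3 UMI it was in 19.65% and 21.6%. Cck was at 1% in 2 and 5 Neurog3 cells, Gcg in 1 and 2, Sst in 1 and 1, Gip in 0 and 6 and Nts in 0 and 2. Pyy was at 1% in 0 of 613, which allows a share of up to 0.489%. A pair of hormones was at 1% in 1 and 5 cells, and 3 hormones in 0 of 613.

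Seen from the hormone, Neurog3 cells made up 24 of 159 Ghrl-carrying cells of the WT library (15.1%; 9.92 to 21.6) and 97 of 403 of the other (24.1%; 19.98 to 28.55). They made up between 0% and 1.14% of the cells of both libraries that carried Gip, Gcg, Pyy, Cck, Sst or Nts. Ghrl took 1.02% to 17.0% of the UMIs of its carriers in the WT library, with a median of 3.48%, and 1.05% to 25.7% with a median of 4.56% in the other. Another 7 and 19 Neurog3 cells lay just under the threshold, between 0.5% and 1%, and 8 and 16 just over it, between 1% and 2%. With each cell thinned to 2000 UMIs, a Ghrl UMI was in 28.8% and 40.5% of Neurog3 cells against 2.22% and 12.35% of tuft-marker cells; unthinned, the shares were 46.9% and 67.4% against 14.7% and 46.9%. A single Ghrl UMI was thus common in tuft-marker cells of the library labelled NFKO too, and only the 1% threshold was used. The source of these UMIs was not tested.

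**Figure D2:**
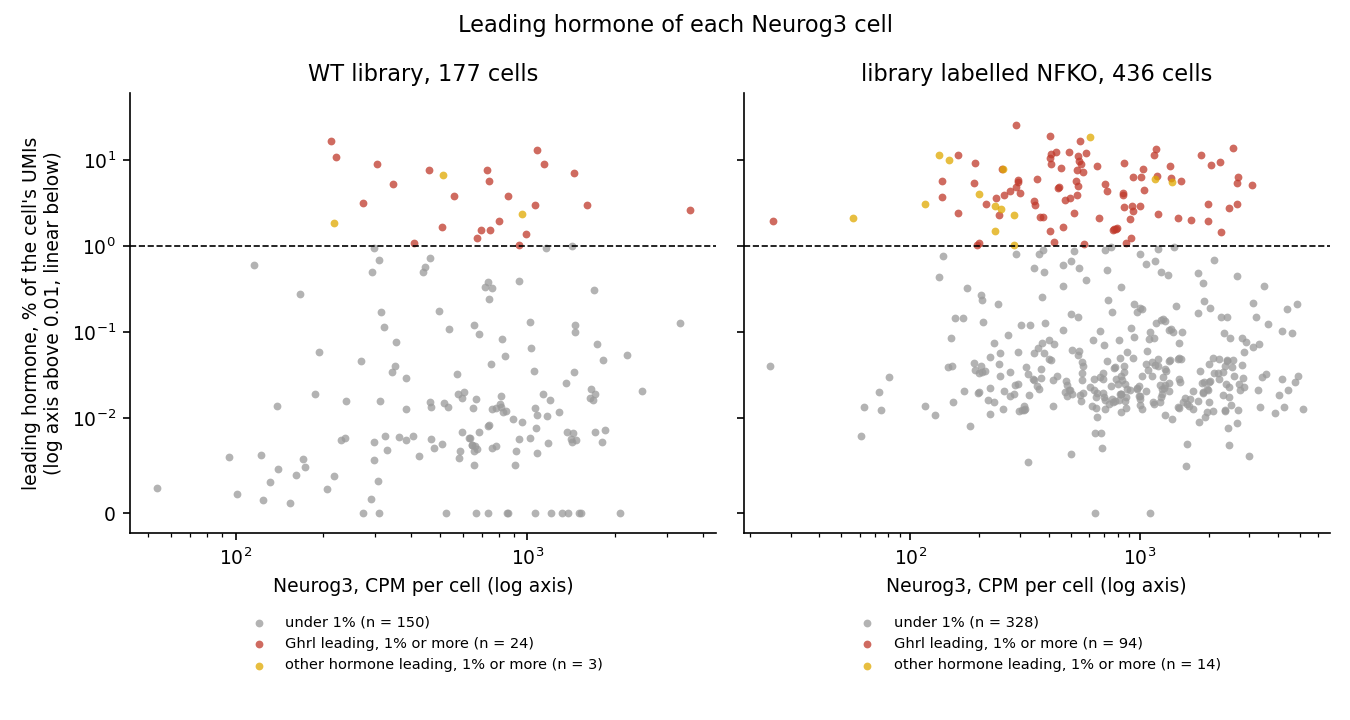
Each point is a Neurog3 cell, with its Neurog3 level (CPM, log axis) against the share of its UMIs taken by its leading hormone (percent, log axis above 0.01 and linear below), and the dashed line marks 1%. Ghrl leads in 24 of the 27 cells over the line in the WT library and in 94 of 108 in the library labelled NFKO, and carriers occur over most of the range of Neurog3.

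The share that carried a hormone was given by bins of Neurog3. Over both libraries it was 25.9% (42 of 162) in Neurog3 cells under 400 CPM of Neurog3, 28.05% (46 of 164) from 400 up to 800, 19.1% (33 of 173) from 800 up to 1600 and 12.3% (14 of 114) at 1600 and over. Within the WT library the shares were 12.2%, 18.6%, 16.7% and 6.67%, the last from 1 of 15 cells, and within the library labelled NFKO 31.9%, 33.3%, 20.2% and 13.1%. By Neurog3 UMIs instead of CPM, a hormone was carried in the WT library by 3 of 20 cells at 20 and over and by 8 of 64 cells at 10 to 19, so the order held only in part. Mfng was at 15, 35.2, 53.3 and 89.1 CPM in the same bins, and Neurod2 at 52.7, 121, 178 and 201 CPM. Ooep had another order, with 134, 538, 396 and 299 CPM, its highest in the bin from 400 up to 800. The bins share the libraries and, through the total UMIs of each cell, the denominator of CPM.

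Tac1 marked another set of Neurog3 cells. Tac1 (ENSMUSG00000061762, chromosome 6, 7554879 to 7565834, plus strand), the precursor of substance P, reached 1% of UMIs in 12 Neurog3 cells of the WT library (6.78%; 3.55 to 11.5) and in 37 of the other (8.49%; 6.05 to 11.5). Of all cells carrying Tac1 at 1%, 12 of 89 in the WT library and 37 of 100 in the other were Neurog3 cells. The gene was not in the hormone rule, and the class was set apart after its values were seen. Ghrl and Tac1 were together at 1% in 0 of 613 cells, which allows a share of up to 0.489%. The highest Tac1 share in any Ghrl-carrying Neurog3 cell was 0.00761% in the WT library and 0.0733% in the other, and the highest Ghrl share in any Tac1-carrying cell 0.00818% and 0.0184%. The classes were cut at 1% of these same peptides, so their Ghrl shares could not overlap whatever the data. Tac1 was not limited in Ghrl-carrying cells, and its shares there stayed under those of Tac1-carrying cells. The highest shares given here were also well under the 1% that the cut allowed.

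The remaining classes were other hormone-carrying cells, 3 and 11 in number, and Neurog3 cells with neither a hormone nor Tac1 at 1%, 138 (78.0%) and 291 (66.7%). Ghrl-carrying and Tac1-carrying cells were of like depth, with medians of 11989 and 12475 UMIs in the WT library and 15476 and 13967 in the other. Median Neurog3 was 731 CPM in Ghrl-carrying and 648 in Tac1-carrying cells of the WT library, and 551 against 861 CPM in the library labelled NFKO, so its order differed between libraries.

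Transcription factors split along the same line. A UMI of Isl1 was in 24 of 24 Ghrl-carrying cells and in 1 of 12 Tac1-carrying cells of the WT library, and in 96 of 97 and 2 of 37 of the library labelled NFKO. Lmx1a ran the other way, in 1 of 24 and 12 of 12, and in 1 of 97 and 33 of 37. Mnx1, a homeobox factor, went with Lmx1a, in 1 of 24 and 12 of 12, and in 4 of 97 and 25 of 37. In tuft-marker cells these 3 genes were seen in 1 to 7 of 95 cells of the WT library and in 1 to 13 of 175 of the other.

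In levels, Isl1 was at 1230 CPM in Ghrl-carrying cells of the WT library, 347 to 2316 per cell, and at 13.1 CPM in Tac1-carrying cells, at most 157 per cell, without overlap. The other library had 1087 CPM, 0 to 2917 per cell, against 9.85 CPM, at most 250.4 per cell. Lmx1a was at 3.05 CPM in Ghrl-carrying and 287 CPM in Tac1-carrying cells of the WT library, and at 0.546 and 286 CPM in the other. Fev was at 51.8 and 431 CPM, and at 104 and 589 CPM. For Isl1 and Lmx1a the levels of 1 class were near 0 in both libraries, while Fev was present in both classes.

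Between these classes Ooep, the marker with the highest fold over other cells, lay on the Ghrl side, but it was not confined to Ghrl-carrying cells. It had a UMI in 56 of 138 cells with neither a hormone nor Tac1 at 1% in the WT library, and in 91 of 291 in the other. It was seen in 20 of 24 Ghrl-carrying and 0 of 12 Tac1-carrying cells of the WT library, the 0 allowing a share of up to 25%, and in 75 of 97 and 1 of 37 of the other. Its level was 707 CPM (0 to 2715 per cell) against 0 UMIs in the WT library, and 756 CPM (0 to 5977 per cell) against 1.97 CPM in the library labelled NFKO. Zcchc12 had the same distribution, in 20 of 24 and 78 of 97 Ghrl-carrying cells and in 0 of 12 and 0 of 37 Tac1-carrying cells. Neither Neurod1 nor Neurod2 separated the classes in this way: Neurod1 was at 1081 and 1534 CPM in Ghrl-carrying and Tac1-carrying cells of the WT library and at 799.3 and 1342 in the other, and Neurod2 at 174 and 105 and at 121 and 112 CPM. Ooep therefore marked only some of the Neurog3 cells, and Neurod1 both classes.

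The granin Chgb lay on the Tac1 side. In the WT library it was at 0 to 1773 CPM per cell in Ghrl-carrying cells, with a median of 145, and at 24386 to 61664 CPM in Tac1-carrying cells, with a median of 49319. In the library labelled NFKO the ranges were 0 to 11369 CPM and 20590 to 80475 CPM, with medians of 198 and 37393. The groups did not overlap in either library. Only listed and named genes were compared between these classes. The share of all genes that separate them in this way was therefore not counted, here or for Isl1 and Cdkn1a. Chga, the granin used to mark endocrine cells, did overlap, at 359 to 3140 and 351 to 3999 CPM per cell in the WT library and at 185 to 4735 and 870 to 12529 CPM in the other. Tph1, the enzyme of serotonin synthesis, was at 0 UMIs in Ghrl-carrying and 2043 CPM in Tac1-carrying cells of the WT library, and at 3.28 and 1894 CPM in the other. Rab3c was at 97.4 and 705 CPM and at 107 and 562 CPM, and Insm1 at 420 and 1005 CPM and at 484 and 914 CPM.

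**Figure D3:**
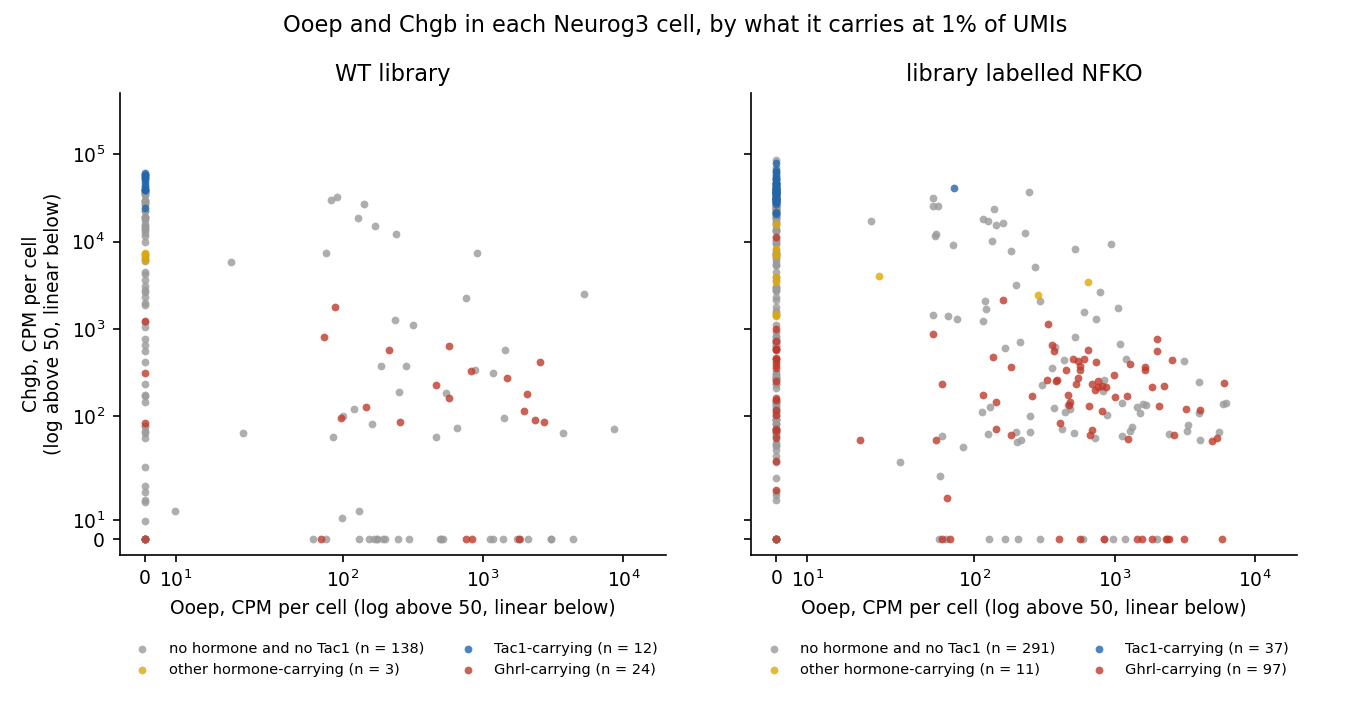
Each point is a Neurog3 cell, with Ooep (CPM per cell) against Chgb (CPM per cell), both axes log above 50 and linear below, coloured by what the cell carries at 1% of its UMIs. Tac1-carrying cells (12 and 37) lie at high Chgb with Ooep at 0 in all but 1 cell, and Ghrl-carrying cells (24 and 97) lie at low Chgb with Ooep spread up to 2715 and 5977 CPM.

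Cell cycle inhibitors differed between the classes as well. Cdkn1a was at 2872 CPM in Ghrl-carrying and 84.9 CPM in Tac1-carrying cells of the WT library, and at 3420 and 146 CPM in the other. Its cells did not overlap in the WT library, at 745 CPM and over against at most 481, and they did in the other, at 614 and over against at most 931. Cdkn1c was at 1711 and 490 CPM and at 2270 and 361 CPM, with overlapping cells. Maged2, of the MAGE family, was at 965 and 32.6 CPM and at 1502 and 47.3 CPM, and Acsl1, which activates long-chain fatty acids, at 868 and 26.1 CPM and at 1065 and 21.7 CPM. All 4 were higher on the Ghrl side in both libraries.

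The cells with neither a hormone nor Tac1 at 1% held the same factors in separate cells for the most part. Of 138 such cells in the WT library, 69 had Isl1, 28 had Lmx1a, 6 had both and 47 had neither. Of 291 in the library labelled NFKO, 118 had Isl1, 93 had Lmx1a, 12 had both and 92 had neither. Detection here depends on depth, and a gene with no UMI in a cell may still be expressed in it.

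Hormone-carrying were next compared with hormone-free Neurog3 cells. The 150 and 328 hormone-free cells lacked only the hormones of the rule and included the 12 and 37 Tac1-carrying cells. Genes of the list of other hormones and amines together reached 1% of UMIs in 17 and 65 of the hormone-free cells. Their part in the folds was not tested. By the same minimums 3982 genes could be compared, of which 148 (3.72%) were 2-fold or more higher in carrying cells in both libraries and 57 (1.43%) lower, around a median of 0 (log2). The fold is the level in carrying over that in hormone-free cells, and since Ghrl set most of the split it largely describes ghrelin cells. The 10 leading genes were Irs4, Fxyd2, Serpina1a, Avpr1b, Scg2, Olfml3, Maged2, Apln, Acsl1 and Gal, between 12.48-fold and 264-fold in either library. Irs4, an adaptor of insulin receptor signalling, was at 101 CPM in carrying and 1.94 CPM in hormone-free cells of the WT library, and at 128 and 0.486 CPM in the other. Hormone-free cells held only 6 and 3 UMIs of it, so that the folds of 52.4 (22.0 to 151) and 264 (89.3 to 1286) are loosely fixed.

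Goblet genes differed with this split in the median cell, but their summed levels did not move alike in the libraries. Of 8 summed folds, 1 was at least 2-fold higher and 4 were lower in carrying cells of the WT library, with a median of -1.67 (log2). In the other library 4 were higher and 0 lower, with a median of 0.913. Only 1 was higher in both libraries, and 0 with size factors. Goblet genes took a median of 0.614% of the UMIs of a hormone-carrying and 0.114% of a hormone-free Neurog3 cell of the WT library, and 0.891% and 0.263% in the other. They made up at least 1% of UMIs in 7 of 27 carrying and 18 of 150 hormone-free cells of the WT library, and in 48 of 108 and 47 of 328 of the other. Of the 8 goblet genes 1 was without a UMI in carrying cells of the WT library. Their part in the differences was not tested.

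Fxyd2, a regulatory subunit of the sodium pump, was at 270 and 1.29 CPM and at 179 and 4.37 CPM. Serpina1a, an antitrypsin, was 29.2-fold and 25.6-fold higher, the vasopressin receptor Avpr1b 18.8-fold and 22.4-fold, and Apln, which encodes the peptide apelin, 20.7-fold and 13.4-fold. Galanin (Gal), a neuropeptide, was 21.5-fold and 12.48-fold higher. Maged2, with 326 and 146 UMIs in the WT library, had the best fixed fold of the 10, 17.98 (14.75 to 22.0), and 17.8 (16.1 to 19.8) in the other. Each of the 10 stayed past 2-fold in both libraries under the same 7 alternatives, none of which changed the hormone threshold or list.

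Of the 7 later endocrine factors compared, 3 were higher in carrying cells and 1 lower, with a median of 0.25 (log2) against 0 over all genes. Within the WT library the medians were 0.40 against 0.20, and within the other 0.25 against 0.034. Zcchc12 was 16.6-fold and 8.27-fold higher, Etv1 8.66-fold and 5.73-fold and Isl1 3.83-fold and 3.48-fold. Lmx1a was 0.361-fold and 0.0437-fold. Of the 12 early factors 0 were higher and only Pax4 lower, at 0.258-fold and 0.238-fold. Neurod1 was 1.49-fold in the WT library but 0.866-fold in the other, and Neurog3 itself 1.41-fold and 0.579-fold, so both lay on either side of 1. Mnx1 was 0.0666-fold and 0.0763-fold, and 0.75-fold at the nearer to 1 in male-typed cells. Ooep was 2.61-fold and 3.15-fold higher in carrying cells.

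Other hormones and amines lay on both sides, with 3 of 6 higher and 2 lower. Sct was 4.94-fold and 3.33-fold higher in carrying cells and Iapp, which encodes amylin, 5.37-fold and 13.8-fold. Tph1 was 0.377-fold and 0.0269-fold, and Tac1 0.185-fold and 0.0581-fold. Of 5 stem cell genes 3 were lower, among them Olfm4, at 18.2 against 839 CPM in the WT library and at 88.5 against 199 CPM in the other. Mfng was at 0.209-fold and 0.454-fold, the 1 of 5 Notch pathway genes that passed.

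Of 16 granule genes 6 were at least 2-fold higher in carrying cells and 1 lower, with a median of 0.36 (log2). Cpe, a carboxypeptidase that trims prohormones, was 5.13-fold and 3.12-fold higher, Pam, which amidates peptides, 4.64-fold and 2.65-fold, Scg3 4.798-fold and 3.13-fold, Scg5 4.29-fold and 2.67-fold and Syt7 3.25-fold and 2.40-fold. Scg2 was 105-fold and 18.1-fold higher, from 4 and 30 UMIs in hormone-free cells. Chgb was lower, at 0.174-fold and 0.110-fold. Cdkn1a and Cdkn1c were the 2 of 8 cell cycle exit genes that passed 2-fold, at 3.65-fold and 3.33-fold and at 3.57-fold and 3.24-fold.

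The other 9 named genes on the lower side were Paneth cell genes: Defa21, Defa22, Defa34, Gm14851, Defa29, Defa5, Gm15293 and Gm15292, of the defensin family, and Lyz1, the Paneth lysozyme. Defa21 was at 117 CPM in carrying and 8185 CPM in hormone-free cells of the WT library, and at 151 and 3763 CPM in the other. These 9 rested on a few very deep cells: in cells of at most 50000 UMIs 0 of them was 2-fold lower in both libraries, and Defa21 was at 1.26-fold, Gm14851 at 1.23-fold and Lyz1 at 1.02-fold. Paneth genes took a median of 0.106% of the UMIs of a Neurog3 cell in the WT library (0.0267 to 60.2) and 0.117% (0.0253 to 47.4) in the other. Members of the defensin family share much of their sequence, and reads may have been split between them.

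Neurog3 cells carrying Ghrl were set beside Ghrl-carrying cells with no Neurog3 UMI, 122 and 274 in number. Ooep was at 231 CPM in hormone-free Neurog3 cells, 707 in Ghrl-carrying Neurog3 cells and 48.0 in Ghrl-carrying cells with no Neurog3 UMI of the WT library, and at 200, 756 and 43.0 CPM in the other. Cdkn1a had the same shape, at 713, 2872 and 1220 CPM and at 895, 3420 and 1392 CPM, and so had Cdkn1c, at 427, 1711 and 540 CPM and at 614, 2270 and 544 CPM. Zcchc12 was at 11.3, 216 and 55.1 CPM and at 17.3, 169 and 26.9 CPM. These 4 genes were thus highest in cells that held Neurog3 and Ghrl together.

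Isl1 was high on both sides of Neurog3, at 1230 and 897 CPM in Ghrl-carrying cells with and without Neurog3 of the WT library and at 1087 and 852 CPM in those of the other. Etv1 was instead at 48.7 and 598 CPM in the WT library and at 65.5 and 403 CPM in the other, and Scg2 at 18.3 and 1645 CPM and at 39.9 and 1402 CPM. Sct, which encodes secretin, was at 621 and 14622 CPM and at 2171 and 33761 CPM. Hhex, a homeobox factor, was at 0 UMIs against 41.4 CPM in the WT library and at 1 UMI against 211 CPM in the other. Ghrl itself, which chose both groups, was at 50540 and 42967 CPM and at 53324 and 66499 CPM. Ghrelin cells with Neurog3 were therefore low in Etv1, Scg2 and Sct beside those without.

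**Figure D4:**
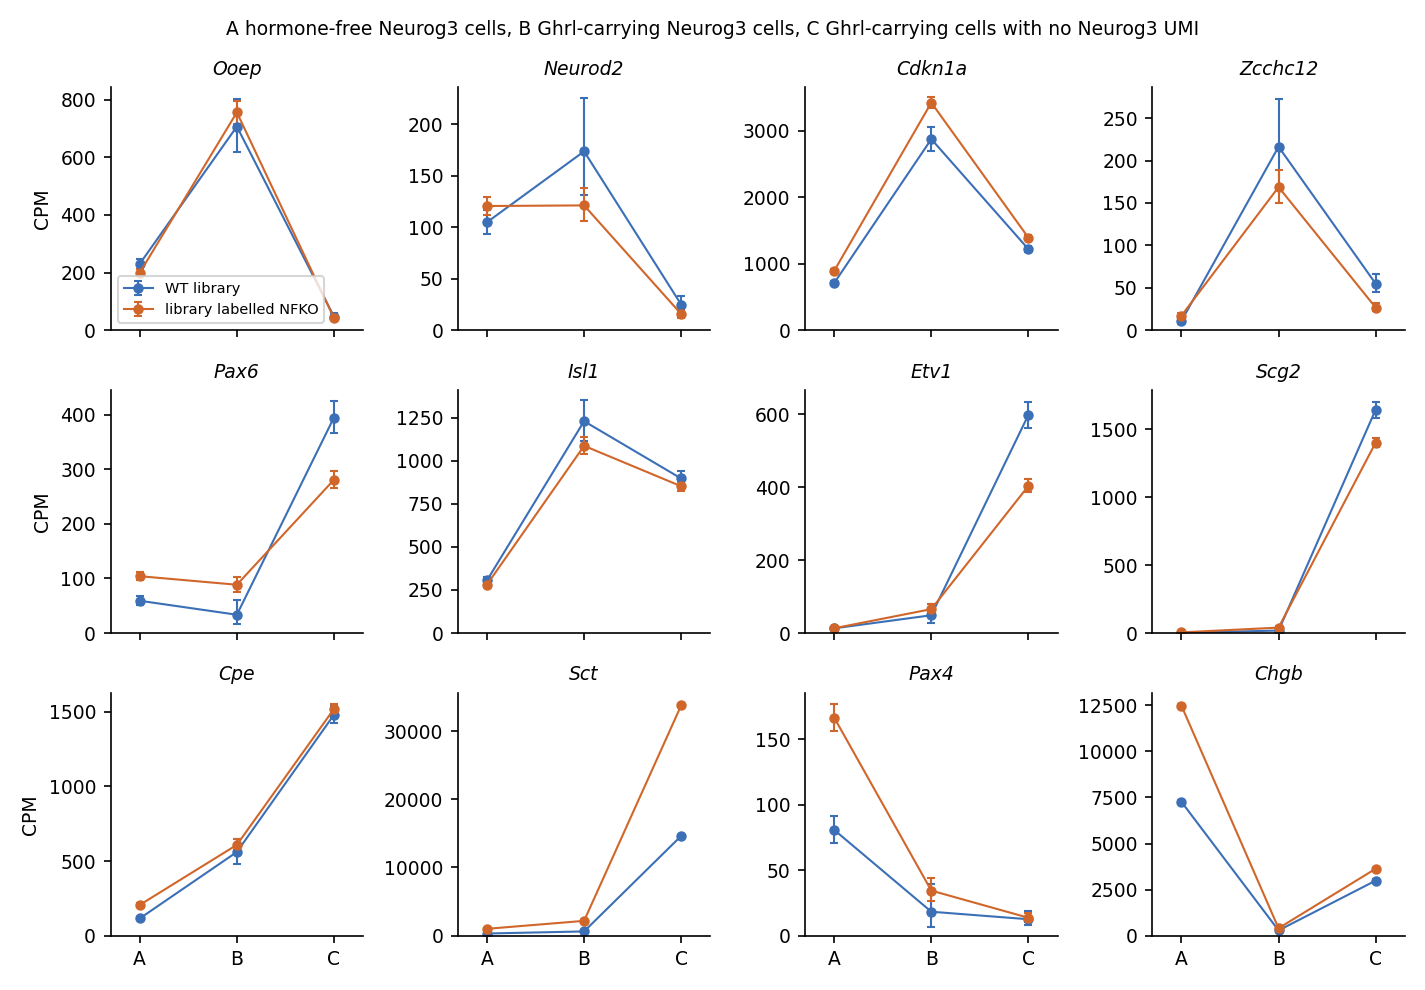
Levels (CPM over summed cells, linear axes from 0) of 12 genes in hormone-free Neurog3 cells (A), Ghrl-carrying Neurog3 cells (B) and Ghrl-carrying cells with no Neurog3 UMI (C) of the WT library (blue) and the library labelled NFKO (orange), with 95% Poisson intervals; lines only join the points of a library. Group A includes the Tac1-carrying Neurog3 cells. Ooep, Cdkn1a and Zcchc12 peak in B, whereas Etv1, Scg2 and Sct are highest in C.

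Neurog3 cells were more frequent in the library labelled NFKO, at 7.74% (7.06 to 8.47) of its cells against 5.66% (4.87 to 6.53) in the WT library, a ratio of 1.37 (1.15 to 1.64). In male-typed cells alone the ratio was 1.10 (0.690 to 1.68), and the interval then included 1. The hormone-carrying share of Neurog3 cells was 1.62 times that of WT (1.06 to 2.58), against 1.17 (1.06 to 1.29) in cells with no Neurog3 UMI, and the difference of these ratios was not tested. Its interval included 1 in male-typed cells, at 1.77 (0.646 to 4.21), and when the highest doublet scores were removed, at 1.52 (0.973 to 2.44). The same held at a minimum of 200 Neurog3 CPM, at 1.40 (0.907 to 2.21), at a mitochondrial limit of 10%, at 1.45 (0.944 to 2.305), at a hormone threshold of 5%, at 1.845 (0.948 to 3.93), and in cells of at most 50000 UMIs, at 1.55 (0.9998 to 2.48). The Ghrl-carrying share had a ratio of 1.64 (1.04 to 2.68) and the Tac1-carrying share 1.25 (0.639 to 2.64). The intervals of these ratios treat both counts as Poisson, which makes them wider than intervals for binomial shares of this size. An interval that includes 1 therefore does not show that the difference was lost in that setting. With 1 pool of mice per group, none of these shares can be set against the spread between mice.

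Across genes, the Neurog3 cells of the library labelled NFKO were compared with those of the WT library. Among 3396 genes, 54 (1.59%) reached 2-fold on the higher side and 60 (1.77%) on the lower, around a median of 0.14 (log2). With size factors the split was 39 higher and 67 lower. With each cell weighted alike 32 genes were higher and 27 lower, and in cells of at most 50000 UMIs 24 genes were lower.

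The leading genes of Neurog3 cells and the early endocrine factors stayed within 2-fold, but several leading genes were higher in the library labelled NFKO. Tubb3 was at 1.95 (1.71 to 2.22), Gm38655 and Zcchc12 at 1.66, Pde1c at 1.65, and Fgd2 and Btbd17 at 1.64. Of the leading genes only Amotl2 lay under 1 in summed CPM, at 0.749 (0.635 to 0.886). Neurog3 itself, which chose the cells, was at 1.64 (1.565 to 1.728). Of 12 early endocrine factors 0 passed 2-fold, with a median of 0.22 (log2). Pax4 had the largest ratio, 1.79 (1.56 to 2.06), from 74.1 to 133 CPM, followed by Insm1 at 1.41 (1.34 to 1.498). Neurod1 was at 1.13 (1.08 to 1.18), Neurod2 at 1.06 (0.937 to 1.19) and Rfx6 at 0.910 (0.820 to 1.01), and Ooep was at 1.16 (1.07 to 1.25). With each cell weighted alike Neurod1, Neurod2 and Ooep lay under 1, at 0.960, 0.897 and 0.963. Of 6 later factors 0 passed, the highest being Fev at 1.83 and Pax6 at 1.79, and of 14 granule genes only Scg5, a chaperone of prohormone convertase, at 2.66 (2.14 to 3.34), or 1.99 with each cell weighted alike. Cdkn1c was at 1.79 and Cdkn1a at 1.58.

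Hormones were the endocrine genes that differed most, 3 of 7 passing 2-fold, or 2 with each cell weighted alike. Ghrl was at 5470 CPM in Neurog3 cells of the WT library and 12120 in those of the other, a ratio of 2.22 (2.18 to 2.25), or 1.76 with each cell weighted alike. Gip, the incretin of K cells, was at 48.5 and 2460 CPM, and 3 cells of the library labelled NFKO held 50% of its UMIs. Nts, the precursor of neurotensin, was at 26.7 and 592 CPM, with 50% of its UMIs in 1 cell. Sct was at 452 and 1632 CPM, a ratio of 3.61. In male-typed cells the ratios of Gip and Nts were 2.999 and 4.45. The low levels of these hormones spread over most cells of that library, since Gip had a UMI in 399 of 436 Neurog3 cells and Nts in 370, against 75 and 55 of 177.

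Genes of other cell types differed between the libraries as well. Goblet genes were higher in the library labelled NFKO, 6 of 7 passing 2-fold, led by Zg16 at 37.4 (34.0 to 41.2) and Clca1 at 16.8, and so were 4 of 6 enterocyte genes, led by Fabp1 at 18.6, Apoa1 at 14.8 and Rbp2 at 11.4. In male-typed cells Apoa1 turned to 0.959 and Zg16 was at 3.55. Goblet genes took a median of 0.151% of the UMIs of a Neurog3 cell in the WT library (0.00748 to 5.83) and 0.3475% (0.0614 to 30.9) in the other, and enterocyte genes 0.0231% (0 to 0.216) and 0.0256% (0 to 5.44). Of the 8 goblet and 8 enterocyte genes 0 were without a UMI in either library. Gm10260 (1 and 882 UMIs) and Mptx1 (2 and 536 UMIs) had the highest ratios of all, 365 (65.3 to 14418) and 111 (30.5 to 917), and Rbp4 followed at 5.72. Their part in the hormone differences was not tested.

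Of the 8 Paneth genes 7 were lower in the library labelled NFKO, but only 1 with each cell weighted alike. Mptx2 was at 0.0397, and at 0.746 in cells of at most 50000 UMIs. Defa23, Retnlb and Defa35, named genes that are not in this Paneth list, were at 0.174, 0.202 and 0.216. In cells of at most 50000 UMIs they were at 0.762, 2.02 and 1.28, so that Retnlb and Defa35 turned over.

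Heat shock genes were lower in the library labelled NFKO, as 5 of 10 stress genes passed 2-fold. Hspa1a was at 296 CPM in Neurog3 cells of the WT library and 8.43 in those of the other, a ratio of 0.0285 (0.0221 to 0.0363), and Hspa1b at 226 and 7.72 CPM. The 10 stress genes took a median of 1.06% of the UMIs of a Neurog3 cell (0.0272 to 2.83) in the WT library and 0.608% (0.0496 to 1.65) in the other. Some genes of dividing and stem cells were lower as well. Mki67, a proliferation marker, was at 0.302 and Top2a, a DNA topoisomerase, at 0.364, the 2 of 6 cycling genes past 2-fold. Their ratios were 0.399 and 0.458 with each cell weighted alike, but 0 cycling genes were counted as lower with that weighting. Mki67 had a UMI in only 27 Neurog3 cells of the WT library and 32 of the other, and Top2a in 34 and 68. Of 5 stem cell genes 2 were lower, or 1 with each cell weighted alike. Olfm4, a crypt base gene, was at 0.227, or 0.579 in cells of at most 50000 UMIs, and the histone genes Hist1h2ap, Hist1h2ae and Hist1h4d were at 0.116, 0.151 and 0.230.

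Insulin transcripts were close to absent from these cells. Ins1 had 0 UMIs in both libraries, and Ins2 had 0 UMIs in the 177 Neurog3 cells of the WT library and 5 UMIs in the 436 of the other, or 0.594 CPM. A level of 3 UMIs corresponds to 0.861 CPM in the WT library and 0.356 CPM in the other. No difference in insulin was therefore detectable at this depth.

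**Figure D5:**
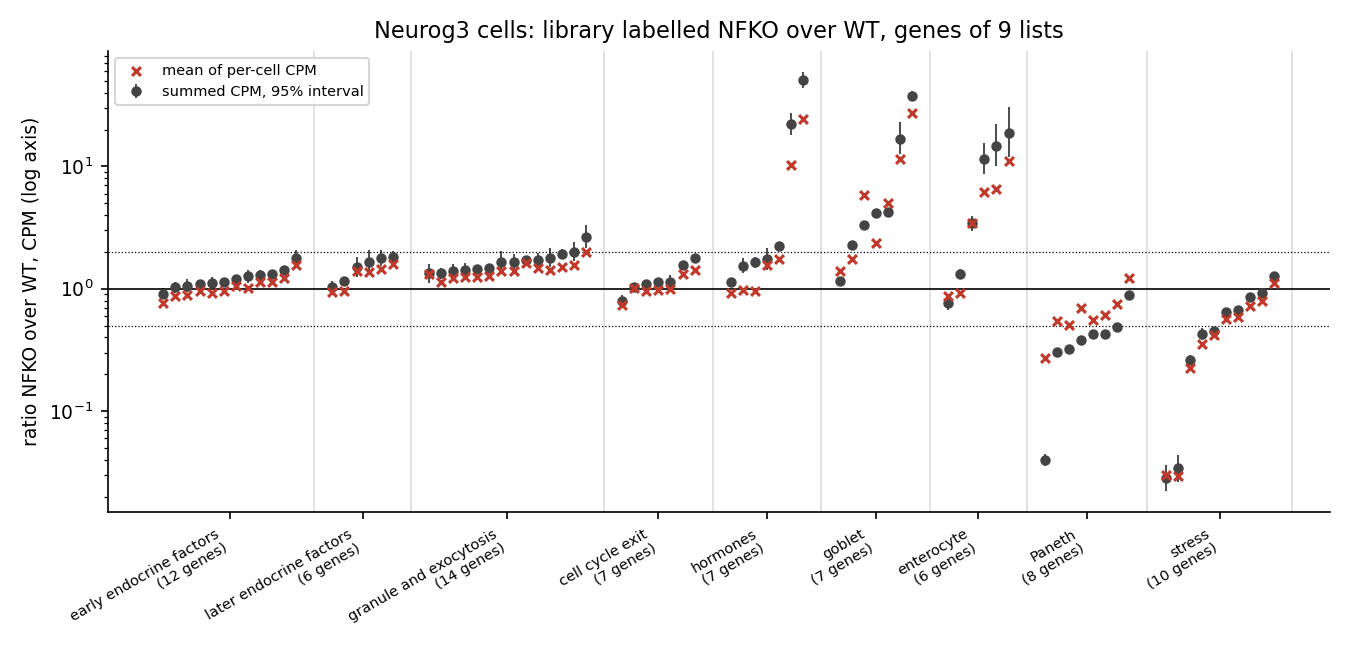
Ratio of the library labelled NFKO over WT (log axis) in Neurog3 cells for the eligible genes of 9 lists; circles are ratios of summed CPM with 95% intervals, crosses ratios of the mean CPM per cell, and dotted lines mark 2-fold. Early and later endocrine factors lie between 0.910 and 1.83 in summed CPM, and hormone, goblet, enterocyte, Paneth and stress genes spread far beyond 2-fold.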

How the data were processed

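The deposited matrices, as whole-number counts of UMIs for 32285 genes, came from 2 10x Genomics 3′ libraries, 1 for WT and 1 labelled NFKO, with 90002878 and 124300388 UMIs in 5051 and 7540 barcodes. The authors' reads were processed with Cell Ranger 5.0.1 against mm10, per the submitters' processing notes. Cells needed 500 genes, 1000 UMIs and a mitochondrial share no higher than 25%, which left 3129 and 5632, with 83968252 and 120048549 UMIs. Cells with at least 3 Neurog3 UMIs were taken as Neurog3 cells. The members, gene lists and comparisons were chosen with earlier results of these data known, and the Ghrl-carrying and Tac1-carrying classes after their values were seen.

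UMIs were summed over the cells of a group and given as CPM. Genes with at least 50 CPM in 1 group and at least 60 UMIs were compared in 3 comparisons, and 2-fold was the mark of a difference. The 10 highest and 10 lowest genes of each were named, except over cells with no Neurog3 UMI, where the 15 highest were; within a library pair the fold nearer to 1 ranked them. Mitochondrial genes, Xist, Ddx3y, Eif2s3y, Kdm5d and Uty were not ranked. Genes of lists are given as counts with examples. One gene was taken out of the list of later endocrine factors after the comparisons were run and is not reported here; its values played no part in that, and the counts and medians of the list are without it. Intervals were exact (Poisson, Clopper-Pearson and conditional binomial, 95%), and no p-value was computed since each group had 1 library. A count of 0 allows a share of 3 counts of the total. Tuft-marker cells had a UMI of at least 5 of 10 tuft genes and none of Neurog3. For shares across depths each cell was thinned to 2000 UMIs, leaving out 1 Neurog3 cell.

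Scrublet in scanpy 1.11.5 marked 3 and 0 cells as doublets, so its automatic threshold was not relied on and doublets were kept. As an alternative the highest scores were removed at 0.8% per 1000 barcodes, 126 and 340 cells, of which 10 and 42 were Neurog3 cells. Other alternatives changed the Neurog3 minimum, the barcode filter, the hormone threshold and list, the scaling, the weight of each cell and the count minimums, or kept male-typed cells; a limit of 50000 UMIs per cell was added after seeing the data. Gene positions are from GENCODE M21 on mm10 by gene identifier, and promoter windows from RefSeq on GRCm38.p6. Python 3.11.15, numpy 2.4.6, scipy 1.17.1, pandas 2.3.3 and matplotlib 3.10.9 were used. Counts were also simulated as Poisson draws from pooled gene shares without spread between cells, which is what the intervals assume. Such draws check the code and not the spread of real cells. For the comparison of the 2 libraries (3161 genes), all 50 genes changed 3-fold each way were found. There 0 of 2961 unchanged genes passed 2-fold and 96.2% of intervals held the true ratio. For hormone-carrying over hormone-free cells of the WT library, 45 of 50 genes made 3-fold lower were found. In that run 7 of 2768 unchanged genes passed 2-fold.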

Additional observations from a re-analysis of the deposited data

How the results depend on the processing

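With 1 library per group no result has a check over mice, and sorting, sex and library preparation cannot be told apart from the labelled genotype. Of 80 alternative values of the shares, ratios and gene counts, 61 stayed within the 95% interval of the share or ratio given, or within 1.5 times the gene count given, 19 moved further and 0 changed direction; the cause of a move was not tested unless the setting itself shows it. The ratio of the share of Neurog3 cells was 1.645 with every deposited barcode and 1.10 in male-typed cells. The share of Neurog3 cells with a hormone was 26.4%, 17.8% and 9.95% at thresholds of 0.5%, 2% and 5% of UMIs, 30.5% with Sct, Tph1 and Tac1 added and 17.5% in male-typed cells, and its ratio ranged from 1.40 to 2.05 over the alternatives. Foxo1 was at 0.652 (0.203 to 1.63) in male-typed cells. Genes higher over cells with no Neurog3 UMI numbered 190 with size factors and 906 at minimums of 20 CPM and 30 UMIs. At those minimums 286 genes were higher and 93 lower in hormone-carrying cells, and 128 higher and 120 lower in the library labelled NFKO. In male-typed cells 263 genes were higher in hormone-carrying cells and 105 in the library labelled NFKO. With each cell weighted alike the last comparison gave 32 higher and 27 lower genes, and 24 lower ones in cells of at most 50000 UMIs. Of 385 alternative values of named genes, 357 stayed past 2-fold in the same direction and 11 turned over. In cells of at most 50000 UMIs Defa21 (1.26), Gm14851 (1.23), Gm15293 (1.195), Defa5 (1.13), Defa29 (1.06), Defa22 (1.05) and Lyz1 (1.02) turned over between hormone-carrying and hormone-free cells, and Defa35 (1.28) and Retnlb (2.02) between the libraries. Retnlb was also at 2.69 without the highest doublet scores, and Apoa1 at 0.959 in male-typed cells. No paired analysis was possible because each group has 1 library.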
